A study of Homo sapiens with 18 samples.

Results

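The open chromatin of unstimulated Ccd18-Co cells, 1 established line of human colon fibroblasts, was described from the 6 libraries that the sample titles call unstimulated, out of 18 libraries in 3 groups. The group is a baseline: the sample titles and characteristics name no cytokine, solvent or belinostat for it, and the labels do not say whether these cells went through the serum-free and rest periods given to the treated wells. The line came from a cell bank and was grown in MEM-alpha medium with serum, and being a single line it stands for 1 genetic background. Nothing in the labels says whether the 6 libraries came from separate cultures, so the spread between them may be partly technical. The 2 treated groups were not analysed here, except that the authors' consensus peaks had been merged from the calls of all 3 groups. Accessibility was measured by Omni-ATAC, an assay in which the Tn5 transposase inserts sequencing adaptors into DNA that is not covered by nucleosomes, and the values are counts of fragments in 334857 consensus peaks.

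Fibroblasts are the cells of connective tissue that deposit collagen and the other proteins of the extracellular matrix, and those of the gut also anchor the epithelium, contract, and answer inflammatory cytokines. Cell identity is held in part by which regulatory DNA is accessible. Promoters of genes that every cell needs are usually open in all cell types, whereas distal elements (enhancers) and the promoters of lineage genes are opened by the transcription factors of each cell type. In fibroblasts and other mesenchymal cells, factors of the AP-1 family (FOS and JUN proteins) and TEAD factors, which carry the signal of YAP and TAZ, are known for binding distal elements. CpG-rich promoters tend to be accessible even where the gene is little used, so promoters of different CpG content are described separately.

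Levels are given as CPM, the counts of a peak scaled to the total of its library, per kb of peak, since a wide peak collects more fragments than a narrow one. Across all peaks the median level was 2.55 CPM per kb, the 90th percentile was 12.2 and the strongest peak reached 174. A gene start was called open where the consensus peaks overlapping the 500 bp on either side of it reached the 90th percentile, and shut where they lay below the median ("weak") or where no consensus peak overlapped it ("no peak"). The remainder were called intermediate. In bulk libraries, a site open in few of the cells and a site weakly open in all of them cannot be told apart. A start without a peak is not shown to be closed, because weak sites that the peak caller passed over are not among the consensus peaks.

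Strong distal elements are shown first, because they are among the most accessible sites away from any gene start. Each sequence is the central 200 bases of 1 of 4 distal peaks (centre over 3 kb from any annotated transcript start) among the 10 with the highest level, read from hg38, 5′ to 3′. Capitals mark matches to the AP-1 word TGANTCA or to the TEAD word GGAATG on either strand.
between genes near SERPINH1 (chr11:75554434-75554633, + strand): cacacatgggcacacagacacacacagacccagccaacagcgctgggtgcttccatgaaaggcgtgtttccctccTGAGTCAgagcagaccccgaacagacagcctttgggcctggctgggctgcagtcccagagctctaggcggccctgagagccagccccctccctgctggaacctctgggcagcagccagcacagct
intron of SQOR (chr15:45641493-45641692, + strand): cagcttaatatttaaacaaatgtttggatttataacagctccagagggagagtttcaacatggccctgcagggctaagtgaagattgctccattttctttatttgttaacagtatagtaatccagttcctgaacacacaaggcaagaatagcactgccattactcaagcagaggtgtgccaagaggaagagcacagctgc
intron of GRK5 (chr10:119414109-119414308, + strand): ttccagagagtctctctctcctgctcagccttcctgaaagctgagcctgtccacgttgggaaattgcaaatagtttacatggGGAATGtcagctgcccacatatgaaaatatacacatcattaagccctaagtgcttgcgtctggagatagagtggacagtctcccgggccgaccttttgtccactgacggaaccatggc
intron of MRGPRF (chr11:69008847-69009046, + strand): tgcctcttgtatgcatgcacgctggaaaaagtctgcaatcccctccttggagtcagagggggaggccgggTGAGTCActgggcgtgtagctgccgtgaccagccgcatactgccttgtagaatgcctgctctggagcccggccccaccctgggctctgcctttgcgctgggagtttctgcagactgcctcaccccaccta
The windows near SERPINH1 and in MRGPRF each held 1 AP-1 word, that in GRK5 held 1 TEAD word, and that in SQOR held neither. None of the windows overlapped an annotated exon. SERPINH1 encodes the collagen chaperone HSP47.

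The gene starts that the lineage results turn on are shown next, as the 250 bases before the start in the RefSeq table of GRCh38.p14, 5′ to 3′ on the strand of the gene, with every CpG in capitals. SPARC and NKX2-3 were the most open starts of the matrix list and of the gut mesenchyme list. HOXA13 and HOXD13 are members of one HOX group that lay on opposite sides of the open threshold. HNF4A and KDR stand for the epithelial and the endothelial genes that were shut.
SPARC (chr5:151686916-151687165, - strand): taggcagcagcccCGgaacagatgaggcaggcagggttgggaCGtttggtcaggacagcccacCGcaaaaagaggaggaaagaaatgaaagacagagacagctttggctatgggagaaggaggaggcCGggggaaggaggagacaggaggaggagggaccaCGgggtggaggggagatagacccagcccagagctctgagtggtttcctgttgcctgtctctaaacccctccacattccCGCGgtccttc
NKX2-3 (chr10:99532692-99532941, + strand): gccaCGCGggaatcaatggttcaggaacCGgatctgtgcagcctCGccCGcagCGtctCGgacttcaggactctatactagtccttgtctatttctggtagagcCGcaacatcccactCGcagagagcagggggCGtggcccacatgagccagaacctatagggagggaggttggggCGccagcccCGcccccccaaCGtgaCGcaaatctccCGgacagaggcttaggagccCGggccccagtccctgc
HOXA13 (chr7:27200092-27200341, - strand): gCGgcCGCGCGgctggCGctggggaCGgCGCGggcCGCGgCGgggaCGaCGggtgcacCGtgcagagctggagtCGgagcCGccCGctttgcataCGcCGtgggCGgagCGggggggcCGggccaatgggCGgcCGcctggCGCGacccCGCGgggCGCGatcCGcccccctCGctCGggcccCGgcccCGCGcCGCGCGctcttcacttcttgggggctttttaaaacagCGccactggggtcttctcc
HOXD13 (chr2:176092471-176092720, + strand): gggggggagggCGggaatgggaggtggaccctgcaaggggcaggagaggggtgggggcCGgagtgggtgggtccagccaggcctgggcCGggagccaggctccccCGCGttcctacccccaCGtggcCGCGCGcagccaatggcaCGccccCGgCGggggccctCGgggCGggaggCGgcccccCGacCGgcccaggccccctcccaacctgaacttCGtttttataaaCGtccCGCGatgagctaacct
HNF4A (chr20:44355449-44355698, + strand): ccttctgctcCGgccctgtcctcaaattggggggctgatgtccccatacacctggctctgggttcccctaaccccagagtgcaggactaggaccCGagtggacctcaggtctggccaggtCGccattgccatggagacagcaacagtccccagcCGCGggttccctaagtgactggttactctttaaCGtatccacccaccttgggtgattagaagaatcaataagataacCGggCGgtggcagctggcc
KDR (chr4:55125596-55125845, - strand): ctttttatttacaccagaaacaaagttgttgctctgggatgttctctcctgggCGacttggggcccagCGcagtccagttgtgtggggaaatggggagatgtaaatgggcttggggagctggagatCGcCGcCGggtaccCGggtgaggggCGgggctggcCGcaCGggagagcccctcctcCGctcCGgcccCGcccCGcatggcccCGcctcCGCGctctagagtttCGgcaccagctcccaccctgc
The number of CpG was 7 in SPARC, 16 in NKX2-3, 40 in HOXA13, 21 in HOXD13, 8 in HNF4A and 17 in KDR. The shut KDR promoter thus held more CpG than the open SPARC promoter, and its G and C content of 65.2% also exceeded the 59.2% of SPARC.

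The genes of the fibroblast matrix were mostly open at baseline. Of 24 matrix and surface genes, 17 had an open start, 6 were intermediate and 1 had no peak, against 49.6% open among all 19625 protein-coding starts. The shut share over all starts was 27.4%. SPARC, which encodes osteonectin, a protein that binds collagen, was the highest of the list at 61.9 ± 2.61 CPM per kb (SD, n = 6), with a lowest library of 58.2, a median of 62.3 and a highest of 64.9. COL1A1, the main chain of type I collagen, lay at 59.7 ± 2.26 (55.9 to 62.6, median 59.8), and COL1A2, its partner chain, at 38.5 ± 1.82 CPM per kb. In each of these starts all 6 libraries lay far above the open threshold. PDGFRA and PDGFRB, the receptors that mark mesenchymal cells, had levels of 36.4 ± 2.69 and 32.7 ± 2.51 CPM per kb, and VIM, the mesenchymal intermediate filament, had 37.0 ± 0.948. VIM varied little from library to library, from 35.2 to 37.9.

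Not every matrix gene was open at its start. COL3A1, the chain of type III collagen, was just inside the threshold at 13.2 ± 2.26 CPM per kb and its libraries lay on both sides of it, from 9.59 to 15.7. LUM and DCN, small proteoglycans that organise collagen fibrils, were intermediate at 7.33 ± 1.98 and 7.70 ± 1.23 CPM per kb. The strongest peak of the DCN locus, which comprises the gene and the 3 kb before its start, lay 42306 bp into the gene at 15.5 CPM per kb. FAP, the protease that marks activated fibroblasts, was intermediate at 10.5 ± 1.73 and LOX, the enzyme that crosslinks collagen, at 10.9 CPM per kb. No consensus peak overlapped POSTN or the 3 kb before its start, so its chromatin is not described. Over the 24 genes the median start level was 19.2 CPM per kb, against 12.0 over all protein-coding genes.

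Regulators of mesenchymal identity were open at about the share of all genes. Of 24 mesenchymal transcription factors, 14 (58.3%) were open, 8 were intermediate and 2 were weak. The open share is near the 49.6% over all starts, so the pooled count is no result about the list. At promoters with over 10 CpG 9 of 15 were open, near the 66.1% of that class. At promoters with at most 10 CpG 5 of 9 were open and 1 was shut, against 13.4% and 68.2% of that class. OSR2 was the highest at 38.1 CPM per kb, followed by NR2F1 at 36.3 and SNAI2, a driver of the mesenchymal state, at 33.5 ± 3.13. Some factors had little accessibility at the start and stronger peaks elsewhere in the locus, which covers all annotated transcripts. RUNX2, the factor of bone and matrix genes, was weak at its start with 2.28 ± 0.880 CPM per kb. Of the 54 peaks of its locus 8 were open. The strongest had 32.4 at 327778 bp from the start, past the end of the canonical transcript. RUNX1 was intermediate at 9.99 ± 3.26 (5.65 to 14.7). Of the 224 peaks of its locus 24 were open, with a maximum of 55.7 CPM per kb. That share is near what the open threshold sets over all peaks. Both genes have more than 1 promoter, and the start used here was that of a single canonical transcript.

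Of 18 transcription factors of gut mesenchyme, 12 were open, 6 were intermediate and 0 were shut. In this list 16 of the 18 promoters held over 10 CpG, a class that was open at 66.1% and shut at 8.79% of 13478 starts genome-wide, and 10 of those 16 were open, so the open count is near the background of that class and is no result about the list. NKX2-3, a homeobox factor of the mesenchyme of the midgut and hindgut, had 58.3 ± 1.58 CPM per kb, with a lowest library of 56.9, a median of 58.0 and a highest of 60.8. TBX3 followed with 55.9 ± 2.97 (51.3 to 59.5). FOXF1 and FOXL1, forkhead factors that the gut mesenchyme expresses under Hedgehog signals, had 31.8 ± 1.05 and 30.5 CPM per kb. The Hedgehog effectors GLI2 and GLI1 were open at 28.7 and 21.7. The 6 factors that were not open were FOXF2 at 11.1, HAND2 at 5.20, HAND1 at 4.57, BARX1, which patterns the stomach, at 4.50, GATA5 at 4.29 and GATA4, a factor of gut and heart, at 3.11 CPM per kb. GATA6, its relative, was open at 17.9.

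Of 14 smooth muscle genes 10 were open (71.4%), against 49.6% of all starts, with a median of 27.8 CPM per kb against 12.0. Of the 8 with a CpG-rich promoter 6 were open, against 66.1% of that class. TAGLN, which encodes the actin-binding protein SM22, had 57.4 ± 4.77 CPM per kb (52.1 to 64.6, median 57.4), and ACTA2, smooth muscle actin and the marker of myofibroblasts, 31.8 ± 1.40 (29.9 to 33.7, median 31.5). MYOCD, the coactivator of SRF that drives smooth muscle genes, was open at 15.3. The other markers were spread widely. LMOD1, SMTN and ACTG2, the enteric smooth muscle actin, were open at 39.8, 27.9 and 27.8 CPM per kb. The 4 starts that were not open were SYNPO2 at 9.93, CNN1 at 8.18, MYH11, the smooth muscle myosin heavy chain, at 4.66 ± 0.945 and DES, which encodes desmin, at 2.00 ± 0.941 with libraries from 0.939 to 3.43. Of the 51 peaks of the MYH11 locus 4 were open, with a strongest of 32 CPM per kb at 44888 bp from the start. That share is near what the open threshold sets over all peaks.

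Markers of pericytes and of the universal and adventitial fibroblast states were mostly intermediate. CSPG4 was the 1 open start of 6 pericyte genes at 22.3 CPM per kb, whereas KCNJ8, a potassium channel of pericytes, was weak at 1.86. Of 10 universal and adventitial genes, PLIN2 alone was open at 14.2 CPM per kb. Over all protein-coding starts 49.6% were open and 27.4% were shut. At CpG-rich promoters 1 of 5 pericyte and 1 of 5 universal and adventitial genes were open, against 66.1% of that class. PI16, a marker of the universal fibroblast state, had 1.64 ± 0.976, and CD34 had 3.22 ± 0.780. In the CD34 locus 2 peaks were open, the strongest with 21.1 CPM per kb at 25757 bp from the start.

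Genes that define the other cell types of the gut were for the most part shut. In the epithelial list 1 of 20 starts was open and 14 were shut, in the endothelial list 0 of 15 were open and 9 were shut, and in the immune list 1 of 20 was open and 15 were shut. Together these are 2 open and 38 shut of 55, against background shares of 49.6% and 27.4%. At promoters with at most 10 CpG, 7 of 11 epithelial, 6 of 8 endothelial and 15 of 18 immune genes were shut. Over all starts of that class 68.2% were shut, so there the epithelial and endothelial counts are near the background. None of these CpG-poor promoters was open, against 13.4% of that class. EPCAM, the epithelial adhesion molecule, had 2.44 ± 0.300 CPM per kb with libraries from 2.07 to 2.82. HNF4A, the factor of intestinal epithelium, had 1.19 ± 0.294 (0.822 to 1.65), which rests on 4, 6, 4, 10, 5 and 4 fragments in libraries 1 to 6. Levels this low are set largely by counting error, and differences between libraries at them were not read. CDH1, which encodes E-cadherin, held 0 to 3 fragments per library. KDR, the VEGF receptor of endothelium, was weak at 2.13 ± 0.366, PECAM1 had 1.81 and VWF 1.42 CPM per kb. No consensus peak overlapped the starts of CDH5 and ERG, of PTPRC, which encodes the pan-leukocyte marker CD45, or of SPI1, the myeloid factor PU.1.

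The exceptions were few. KRT18, a keratin of simple epithelia, was open at 19.1 ± 1.81 CPM per kb (17.3 to 22.4, median 18.4) at a promoter with 31 CpG. CORO1A, an actin regulator of leukocytes, was open at 14.9 ± 1.17 (13.1 to 16.7). Of 14 genes of neurons and glia 2 were open and 7 were shut, against 49.6% and 27.4% over all starts. TUBB3, a neuronal tubulin, reached 48.5 ± 3.02 CPM per kb (45.1 to 53.0) and SNAP25 lay on the threshold at 12.3 ± 1.19. SNAP25 was below the threshold without library 4 or without library 5, which left 1 open start in that list.

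A shut or intermediate start did not mean that the whole gene lacked open sites. Of the 55 epithelial, endothelial and immune loci 12 held at least 1 open peak (21.8%), among them 5 of 15 endothelial loci, against 62.4% of all protein-coding genes. Both shares also count open peaks at the start itself. KRT18 and CORO1A, which are among the 12 loci, had open starts. TEK, the angiopoietin receptor, had 6 open peaks of 27, with a strongest of 49.9 CPM per kb. VWF had 4 of 46, with 33.9, and FLT1 3 of 34, with 17.3. CDH1 and PECAM1 each had 2, of 27 and 22 peaks, with strongest peaks of 27.1 and 15.2. The open threshold is the 90th percentile of all peaks, so a locus with many peaks is likely to hold some. In VWF, FLT1, CDH1 and PECAM1 the open share was near what this threshold sets over all peaks. In the PTPRC locus 1 peak was open, with 20.7 CPM per kb at 30146 bp from the start. The others were CLDN4, KRT8, KRT18, LGR5, ROBO4 and CORO1A with 1 or 2 each. KRT8 and KRT18 share their strongest peak, and the only peak of the CORO1A locus is that at its start. Peaks inside a gene can belong to a neighbour or to another transcript, and were assigned to neither.

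CpG content moved with these classes. Open starts had a median of 23 CpG in the 250 bases before the start, intermediate starts 20, weak starts 6 and starts without a peak 3. Among the 6147 promoters with at most 10 CpG, 13.4% were open and 68.2% were shut. In that CpG-poor class, 9 of 15 matrix genes were open and 1 was shut. There 4 of 6 smooth muscle genes and 5 of 9 mesenchymal factors were open. By contrast, 0 of 18 immune genes were open and 15 were shut. Of 11 epithelial and 8 endothelial genes 0 were open, while 7 and 6 were shut, near the 68.2% of the class. In the CpG-rich class, 8 of 9 matrix genes were open, compared with 1 of 9 epithelial genes, of which 7 were shut, and 0 of 7 endothelial genes, of which 3 were shut. The lists of regulators were not set apart in the CpG-rich class, where 9 of 15 mesenchymal factors and 10 of 16 gut mesenchyme factors were open, near the 66.1% of all starts of that class, and of 2 CpG-rich immune genes 1 was open and 0 were shut.

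**Figure D1:**
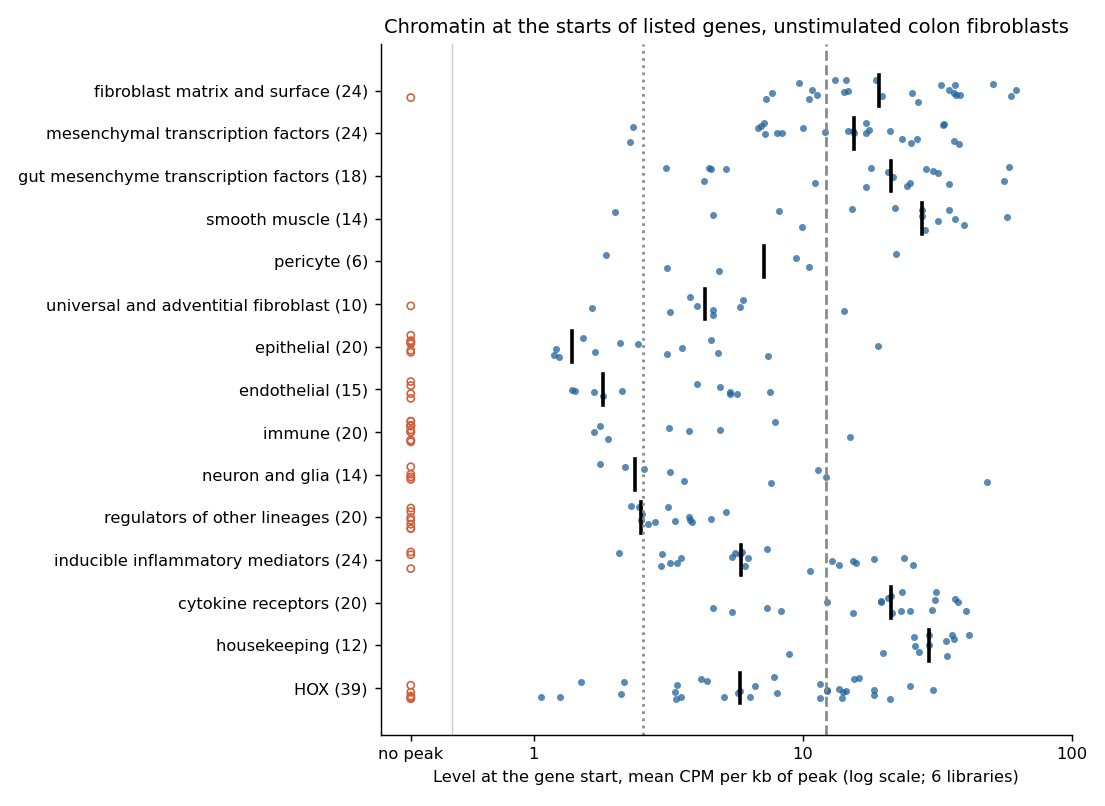
Mean level at the gene start in CPM per kb of peak (log axis, mean of 6 libraries) for each gene of 15 lists, with the number of genes in parentheses. Blue points are genes with a peak at the start, open orange circles are genes without one, black bars are list medians with genes lacking a peak ranked lowest, the dotted line is the median of all peaks (2.55) and the dashed line the 90th percentile (12.2); matrix, gut mesenchyme, smooth muscle, receptor and housekeeping medians lie right of the dashed line and epithelial and endothelial medians left of the dotted line.

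Regulators of lineages outside the gut stroma were not open. Of 20 such factors, among them MYOD1 for skeletal muscle, PAX6 for eye and brain and TP63 for squamous epithelium, 0 starts were open, 9 were intermediate, 4 were weak and 7 had no peak. Over all protein-coding starts 49.6% were open and 27.4% were shut. The highest was NKX2-1, the factor of lung and thyroid, at 5.18 CPM per kb. Over 10 CpG were found in 12 of these 20 promoters, of which 4 were shut and the rest intermediate. In that class 66.1% of all starts were open and 8.79% were shut. At the extremes, 72 of 76 ribosomal protein genes and 11 of 12 housekeeping genes were open, and 0 of 391 olfactory receptor genes were open, of which 379 were shut. HPRT1 was the housekeeping gene below the threshold, at 8.88 CPM per kb.

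Most cytokine receptor genes had an open start. Of 20 receptor genes 16 were open and 4 intermediate, with a median of 21.4 CPM per kb. OSMR, the receptor subunit for oncostatin M, had 30.3 ± 1.64 CPM per kb (27.5 to 32.1, median 30.5), and IL6ST, its signalling partner gp130, 36.9 ± 2.97 (32.8 to 41.1). The IL-17 receptor chains IL17RA and IL17RC had 23.2 and 21.3, IL1R1, the receptor of IL-1, 19.5 ± 1.12 and its accessory chain IL1RAP 31.0. TNFRSF1A, the main receptor of TNF, had 23.4 ± 2.15 CPM per kb at its start (20.0 to 25.6, median 24.2). TNFRSF1B, the second TNF receptor, which is typical of leukocytes, was intermediate at 4.65, and so were IL22RA1, a receptor chain of epithelium, at 5.45, and the broadly used chains IFNGR2 at 7.39 and IL10RB at 8.32. The open share of 80% compares with 49.6% over all protein-coding starts. Most receptor promoters were CpG-rich (17 of 20), and 14 of those 17 were open, against 66.1% of that class. Of the 3 CpG-poor promoters 2 were open, against 13.4% of their class.

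The genes that such receptors induce ranged from open to shut. Of 24 inducible mediators 7 were open, 13 were intermediate, 1 was weak and 3 had no peak, with a median of 5.90 CPM per kb. Over all protein-coding starts 49.6% were open and 27.4% were shut. IL11, a cytokine of the IL-6 family linked to fibrosis, was the highest at 25.6 ± 2.63 CPM per kb (22.7 to 30.1, median 25). CCL2, the monocyte chemokine, had 23.8 ± 2.55 (20.1 to 27, median 23.8). IL6 itself lay close to the threshold at 12.9 ± 1.03, with libraries from 11.4 to 14.4 on both sides of it. The neutrophil chemokine genes CXCL1, CXCL2 and CXCL3 had 15.7 ± 0.775, 15.4 ± 0.614 and 10.6 ± 0.197 CPM per kb, compared with 5.59 ± 0.811 at CXCL8. The collagenase MMP1 was open at 18.3 (15.9 to 21.1), while MMP3, stromelysin, had 3.42. IL1B had 3.54 and PTGS2, the inducible cyclooxygenase, 7.36 CPM per kb. For IL24 and CSF3 no peak overlapped the start, but an open peak lay at position -1160 and -1511 relative to it, with 27.4 and 18.8 CPM per kb. PDPN, a marker of stromal activation, was open at 13.7 and its locus held 5 open peaks, the strongest with 67.5 CPM per kb at 10012 bp from the start. In this list 18 of the 24 promoters held at most 10 CpG, and 3 of those 18 were open, against 13.4% of that class. Of the 6 CpG-rich promoters 4 were open, against 66.1% of their class. The open count is thus near the background of both classes and is no result about the list. The shut count was lower than the background: of the 18 CpG-poor promoters 4 were shut, against 68.2% of that class.

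The HOX genes encode the factors that set position along the body axis, and they lie in separate clusters in which genes of high number are used in the hindgut and other posterior structures. Their starts differed by cluster. In HOXA 8 of 11 starts were open (72.7%) and in HOXB 5 of 10 (50%), whereas in HOXC 0 of 9 and in HOXD 0 of 9 were open. Over all protein-coding starts 49.6% were open, so the HOXB count is near the background and is no result about that cluster. HOXB2 and HOXB5 lay on the threshold at 12.3 CPM per kb, and without library 5 both fell below it and left 3 of 10. With the 95th percentile of all peaks as the threshold 3 of the 39 HOX starts, all in HOXA, were open. No peak anywhere in the gene or in the 3 kb before it was open for any HOXC or HOXD gene. At least 1 open peak was found for 8 HOXA genes (72.7%) and 7 HOXB genes (70%), near the 62.4% of all protein-coding genes. HOXA3 was the highest at 30.6 ± 5.58 CPM per kb (25.1 to 40.7, median 29.3). HOXA13, the most posterior gene of its cluster, was open at 13.7 ± 0.778, with a lowest library of 12.4, a median of 13.9 and a highest of 14.5. HOXD13 had 5.87 ± 1.02 (4.83 to 7.37, median 5.74), and the libraries of both genes did not overlap. The highest start of HOXC was HOXC8 with 7.81 CPM per kb (7.03 to 9.25) and that of HOXD was HOXD8 with 8.00 ± 0.184 (7.71 to 8.28). Of the 39 HOX promoters 27 held over 10 CpG, of which 11 were open, against 66.1% of that class. Near-neighbours within a cluster can share a peak, and HOXA2, HOXA5, HOXB8, HOXC6, HOXC12 and HOXD12 had no peak at the start, with none at all in the locus of HOXA5.

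**Figure D2:**
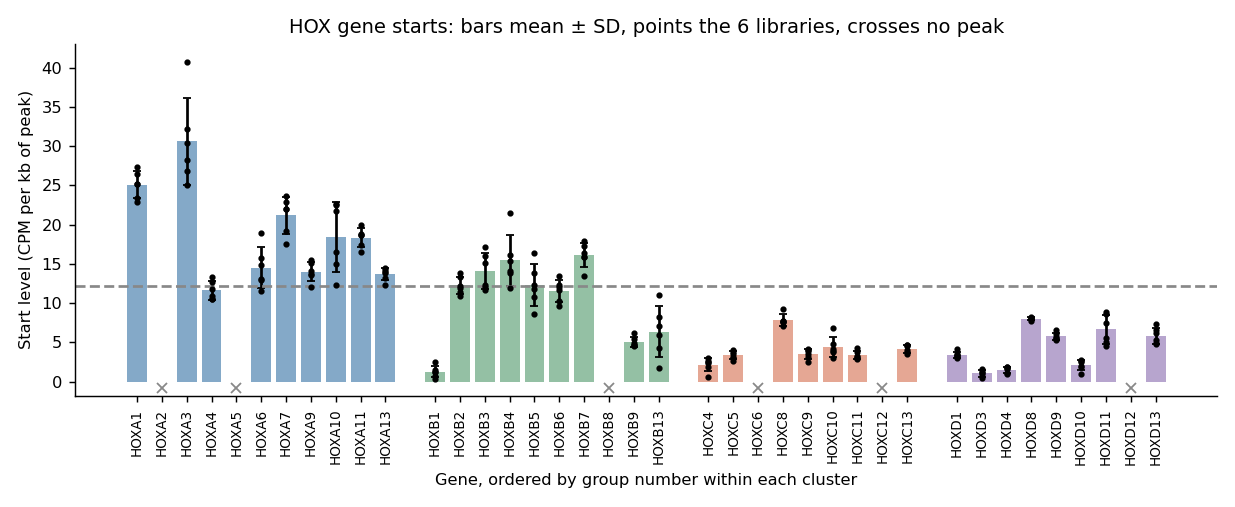
Start level in CPM per kb of peak for the 39 HOX genes, in order of group number within each cluster (HOXA blue, HOXB green, HOXC orange, HOXD purple). Bars are means of 6 libraries with the SD, points are the libraries, crosses mark starts without a peak and the dashed line is the open threshold (12.2); no HOXC or HOXD bar reaches the line, the highest being HOXD8 with 8.00.

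Paralogues were compared directly in each library, because both genes of a pair are then measured at the same depth. The difference was taken as log2 CPM per kb of the first gene minus the second, and tested by an exact two-sided sign-flip permutation test over the 6 libraries, adjusted by Benjamini-Hochberg over the 12 pairs in which both starts had a peak. The smallest p this design can give is 0.0312, which is 0.0375 after adjustment, and 10 of the 12 pairs reached it. Such a p says only that the difference had 1 sign in all 6 libraries. The pairs were chosen with earlier levels of these data known and the libraries may not be separate cultures, so the sizes below are descriptions of these libraries. CDH11, the cadherin of mesenchyme, exceeded CDH1 by 4.78 ± 1.03 on the log2 scale, VIM exceeded DES by 4.26 ± 0.65 and PDGFRB exceeded KDR by 3.93 ± 0.31, each in 6 of 6 libraries. CDH1 held so few fragments that the size of the first of these differences depends on the 0.5 added to each count, and it was 2.81 with any annotated start and 7.47 without the correction for width. COL1A2 exceeded COL2A1, the collagen of cartilage, by 3.02 ± 0.43. SNAI2 exceeded SNAI1 by 1.99 ± 0.19, FOXF1 exceeded FOXF2 by 1.52 ± 0.15 and OSMR exceeded LIFR, the receptor subunit for LIF, by 0.50 ± 0.11.

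In the remaining pairs past the threshold the second gene was higher. The difference was -1.11 ± 0.20 for PRRX1 and PRRX2, -0.59 ± 0.15 for TWIST1 and TWIST2 and -0.76 ± 0.29 for ZEB1 and ZEB2, each with the same sign in 6 of 6 libraries. The ZEB pair depends on the correction for width, since without it the difference was 3.02 in favour of ZEB1. NR2F2 and NR2F1 differed by -0.13 ± 0.10 (exact permutation p = 0.0625, adjusted 0.0682), which turned to 0.45 in favour of NR2F2 without the correction for width, and HAND2 and HAND1 by 0.20 ± 0.46 (exact permutation p = 0.406), with HAND2 higher in 3 of 6 libraries. Without the correction for width both these pairs passed the threshold, HAND2 being higher by 0.80. For CDH2 and CDH5 and for IL1R1 and IL1R2 no test was run because the second start had no peak. CDH2 had 11.4 ± 1.04 and IL1R1 19.5 ± 1.12 CPM per kb.

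Most peaks were distal, but most fragments were not. Peaks with the centre within 3 kb of any annotated transcript start made up 28.7% of peaks (Wilson 95% interval 28.6 to 28.9), 35.2% of the bases in peaks and 54.5 ± 0.746% of counts (SD, n = 6; 53.4 to 55.6). Within 1 kb of a start lay 16.5% of peaks and 44.9 ± 0.871% of counts. Distal peaks carried 45.5% of counts, of which 29.2% of all counts fell inside genes and 16.3% between genes. Peaks over 100 kb from any start were 2.46% of peaks and held 1.10% of counts. The median level was 3.18 CPM per kb for promoter peaks and 2.38 for distal peaks, and 20.6% and 5.73% of them reached the 90th percentile.

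The promoter share rose with rank. It was 92% among the 100 strongest peaks (Wilson 95% interval 85.0 to 95.9), 79.2% among the first 1000 (76.6 to 81.6), 67.2% among the first 10000 and 53.0% among the first 50000. Those 50000 peaks held 72.4% of all counts. The G and C content of the central 200 bases fell along the same order, with medians of 61.0% in the first 1000 and 50.5% in all peaks, and the number of CpG in them fell from 12 to 2. Ranking by CPM without the correction for width kept 46% of the 100 strongest and 66.3% of the 10000 strongest peaks, and gave promoter shares of 97% and 75.5%.

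**Figure D3:**
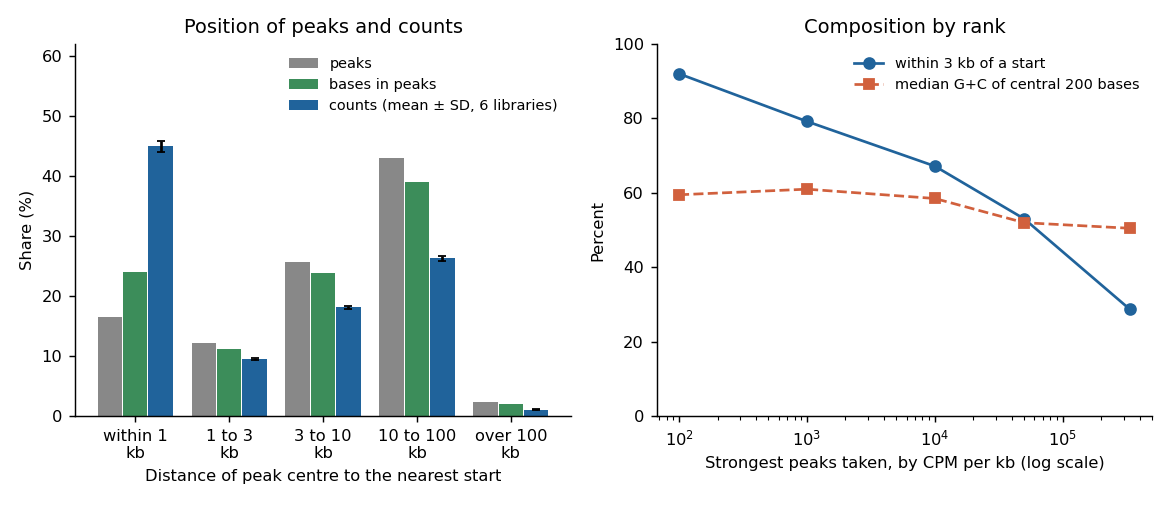
Left, shares (%) of peaks, of bases in peaks and of counts (mean of 6 libraries, error bars SD) by distance of the peak centre to the nearest annotated start. Right, promoter share (%) and median G and C content (%) of the strongest 100, 1000, 10000 and 50000 peaks and of all peaks (log axis); the promoter share falls from 92% to 28.7%.

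The 10 strongest peaks all lay within 1 kb of an annotated start. The first, at chr7:100586053-100586772, covers the divergent starts of LRCH4 and FBXO24 and had 174 ± 12.6 CPM per kb (156 to 193, median 173). Since 1 peak serves both starts, its level was counted for both genes, and the part of each cannot be told apart. The next lay at chr7:21426998-21427604, 742 bp from the start of the transcription factor gene SP4, with 154 ± 10.4. Peaks at KMT5C (152), KCTD9 (147), KHSRP (145), SIN3A (143), CIC (141), DGLUCY (139) and KAT6B (139 CPM per kb) followed. KMT5C is a histone H4 lysine methyltransferase, KAT6B a histone acetyltransferase, SIN3A the scaffold of a histone deacetylase complex and CIC a repressor of ETS genes. Of the 10 highest protein-coding starts, G3BP1, CNOT3, ABHD2 and TEDC1, which are not among these peaks, had 132 to 134 CPM per kb. The last of the 10 strongest peaks lay at a BOLA2 copy on chromosome 16 with 138 CPM per kb. BOLA2 and SLX1 on chromosome 16 and FAM72 on chromosome 1 occur in near-identical copies whose reads can be exchanged, and their levels are uncertain.

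Among distal peaks the levels were lower than at the strongest starts. The highest, chr11:75554185-75554881, lay between genes at 7523 bp from the start of SERPINH1 and had 117 ± 9.39 CPM per kb. Its libraries 1 to 6 had 122, 98.4, 124, 115, 119 and 121, so that library 2 lay below the others. The peak in SQOR, chr15:45641320-45641864, had 107 ± 8.5 (97.4 to 122) and that in GRK5, chr10:119413713-119414703, 106 ± 3.93 (101 to 112). SQOR encodes the mitochondrial sulfide quinone oxidoreductase and GRK5 a kinase of G protein-coupled receptors. The GRK5 peak lay inside the gene, 38240 bp from the nearest annotated GRK5 transcript start, which need not be the canonical one. The peak in MRGPRF, chr11:69008737-69009155, had 105 ± 10.0 CPM per kb (92.9 to 121). Of the first 10, those nearest to AZIN2, VASH2, PKNOX2, TACC1 and TRIP13 had 99.1 to 104 CPM per kb.

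Sequence words differed between strong distal and strong promoter peaks. The AP-1 word TGANTCA, which reads the same on both strands, was in the central 200 bases of 15.2% of all 238692 distal peaks and of 29.3% of the 10000 strongest. In promoter peaks it was in 11.3% of all 96165 and in 10.3% of the 10000 strongest. The TEAD word GGAATG rose from 16.4% to 21.2% in distal peaks, the C/EBP word TTGCNNAA from 10.5% to 14.2%, the forkhead word TGTTTAC from 4.71% to 8.09% and the CArG box of SRF from 1.21% to 1.98%. The RUNX word TGTGGT differed less, with 17.4% of all and 19.3% of the strongest distal peaks. The GATA word AGATAA was in 9.22% and 10.2%, and the NF-kB motif in 0.928% and 1.22%. The CTCF motif was in 1.23% and 1.15%. The HNF4 word CAAAGTCCA was in 0.319% of all and 0.230% of the strongest distal peaks, the GRHL word AACCGGTT in 0.0289% and 0.0900%, and the PU.1 word GAGGAAGT in 1.5% and 1.92%. Shares of different words are not comparable, since longer words occur less often. Each word was searched on both strands. The sets also differed in base composition, with a median G and C content of 49% in all and 47% in the strongest distal windows, and in peak width, with medians of 264 and 649 bp.

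In promoter peaks the SP/KLF, NRF1 and ETS words rose most with rank, as a ratio of the 2 shares. The SP/KLF word GGGCGG was in 18.3% of all and 47.2% of the 10000 strongest promoter peaks, the NRF1 motif in 0.884% and 3.32%, the ETS word CCGGAAGT in 0.734% and 2.63%. These words also rose in distal peaks, from 4.57% to 7.54% for SP/KLF, from 0.0432% to 0.14% for NRF1 and from 0.155% to 0.21% for ETS. The NFY word CCAAT was in 19.9% and 23.8% of promoter peaks and was as frequent in distal ones, with 22.6% of all and 22.1% of the strongest. The median G and C content rose alongside, from 54.5% to 64%, and its part in these shares was not tested. A match describes letters in a window and no binding was measured.

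**Figure D4:**
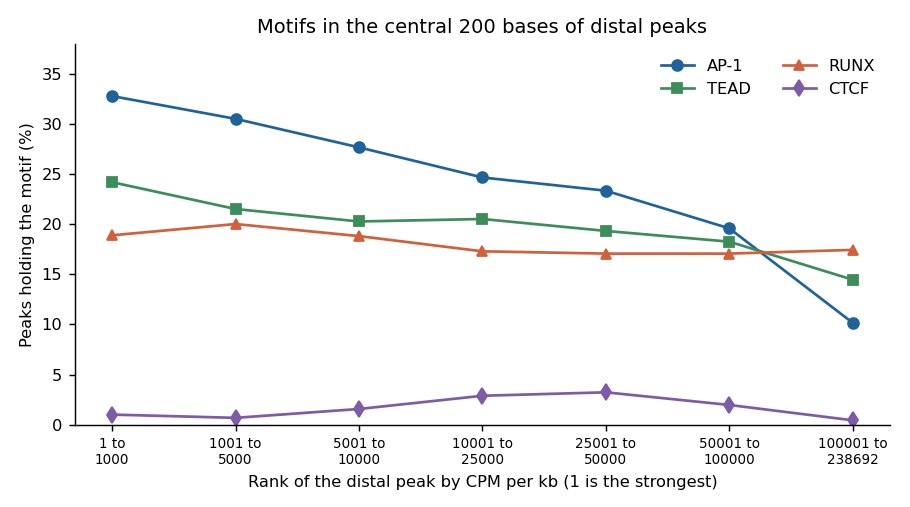
Share (%) of distal peaks whose central 200 bases hold the AP-1, TEAD, RUNX or CTCF word, by rank of the peak (1 is the strongest). The AP-1 line falls from 32.8% in the first 1000 peaks to 10.2% beyond rank 100000, TEAD falls from 24.2% to 14.5%, RUNX moves from 18.9% to 17.4% and CTCF is highest, at 3.22%, between ranks 25001 and 50000.

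The AP-1 share fell at each step of the distal rank, from 32.8% in the first 1000 peaks through 30.5%, 27.7%, 24.7%, 23.4% and 19.6% to 10.2% beyond rank 100000. The CTCF share followed another course and was highest in peaks of middle rank, with 1.00% in the first 1000, 3.22% between ranks 25001 and 50000 and 0.430% in the last class.

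The 6 libraries agreed closely at strong peaks and less at weak ones. Depth ranged from 7077321 to 11352032 counts in peaks. Over the 15 pairs of libraries, Pearson's r of log2 CPM across all peaks was 0.921 to 0.938 with a median of 0.928, and Spearman's rho had a median of 0.822. These are correlations across peaks, which are not independent replicates. Among 124611 peaks with a mean of at least 1 CPM the median r was 0.958. Of the 10000 strongest peaks of a library, 91.2% to 92.5% were also among the 10000 strongest by the mean of the other libraries. Relative to the variance that counting alone gives, the variance between libraries was 1.14 times as large at 5 to 10 CPM, 1.37 times at 20 to 50 CPM and 2.07 times above 50 CPM. Between pairs of libraries this ratio ranged from 1.02 to 1.35 among peaks with at least 1 CPM, and the 3 highest values, 1.29 to 1.35, were those of library 6 with libraries 2, 4 and 5. At a mean of at least 10 CPM the median coefficient of variation was 7.66% for promoter peaks and 8.81% for distal peaks. The counting error calculated for the same peaks had medians of 7.47% and 8.73% of the mean. A median coefficient over 6 libraries tends to lie below the underlying spread, so these values are not directly comparable, and the variance ratios above are the measure to read.

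Library 6 stood apart in its weak peaks. It had no fragment in 11.3% of peaks, against 1.01% to 4.20% in the others, and 12.2% against 2.98% to 6.24% after all libraries were thinned to the same total. The peaks below the median level held 4.93% of its counts and 6.91% to 9.11% in the others, and its promoter share of counts was the highest, at 55.6%. Without it the open starts of the matrix, mesenchymal factor and combined epithelial, endothelial and immune lists were 17, 15 and 2, against 17, 14 and 2 with it.

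**Figure D5:**
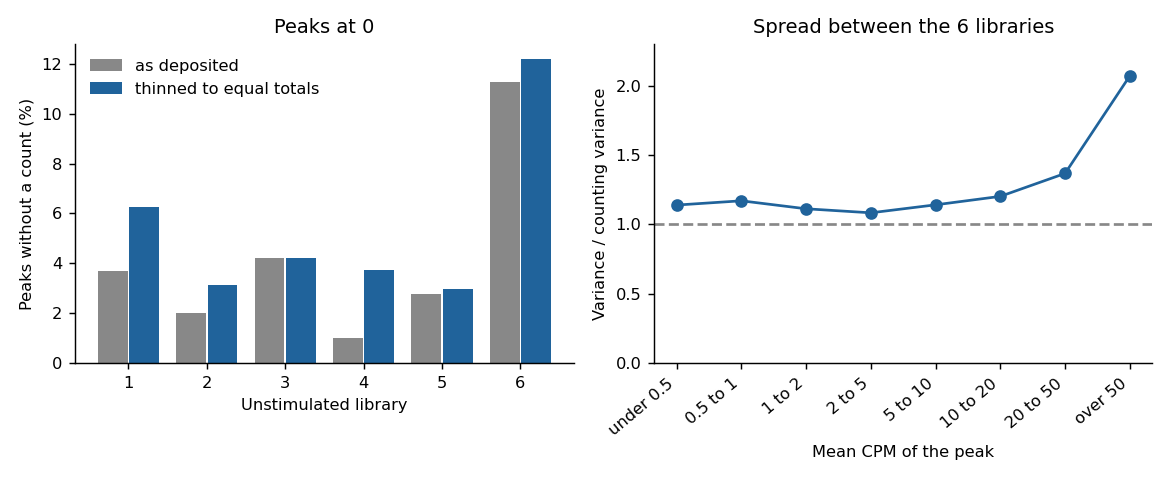
Left, share (%) of the 334857 peaks without a fragment in each library, as deposited and after thinning to the smallest total; library 6 is the highest with 11.3% and 12.2%. Right, variance between the 6 libraries divided by the variance that counting gives, by mean CPM of the peak, with 1 (dashed) meaning counting error alone; it stays between 1.08 and 1.37 below 50 CPM and reaches 2.07 above.

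Few well-covered peaks varied strongly. Among peaks with a mean of at least 10 CPM, the 5 with the largest coefficient of variation comprised 4 on chromosomes 18 and 21 and 1 beside FOS, the gene of an AP-1 subunit that responds within minutes to serum and stress. The FOS peak, chr14:75283252-75284231, lay 3548 bp from the nearest annotated FOS start and had a coefficient of variation of 37.5%. In libraries 1 to 6 it had 7.51, 7.48, 8.07, 12.0, 15.1 and 17.1 CPM per kb, so that 3 libraries lay between 7.48 and 8.07 and 3 between 12.0 and 17.1. The peak with the largest coefficient, 40.4%, was chr18:107796-109432 near the pseudogene ROCK1P1, with 2.68 to 12.5 CPM per kb. All 4 peaks on chromosomes 18 and 21 were lowest in library 6 and lie in repeated or multicopy sequence, so their levels are uncertain.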

How the data were processed

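Bulk ATAC-seq libraries of Ccd18-Co colon fibroblasts were taken from the table that the authors deposited, whose values are unnormalized counts: the number of fragments that each library has in each consensus peak. To make them, the authors ran the ENCODE pipeline for ATAC-seq on hg38, which drops duplicates and mitochondrial reads, pooled the lanes of a library, called peaks by MACS2, joined the calls of the 3 conditions outside blacklisted regions, and counted with csaw. Submitters' notes also name ChIPseeker 1.34.1. Libraries were grouped by sample title, and the 12 count columns of the treated groups were not used. Reads outside peaks and fragment lengths were not used here.

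Peak starts were counted from 0 in the table (the narrowest peaks then have 150 bp) and were raised by 1. Counts were divided by the library total in peaks (7077321 to 11352032) to give CPM and by peak width in kb. Gene starts were those of canonical protein-coding transcripts in GENCODE release 44 (19625 genes, without the Y chromosome and mitochondria), and the peaks overlapping 500 bp on either side were summed. Log2 CPM used a prior count of 2. Pairs were tested by an exact two-sided sign-flip permutation test with 0.5 added to counts, adjusted by Benjamini-Hochberg, with a threshold of 0.05. Sequence words and CpG were counted in hg38, and printed promoters came from RefSeq, whose table matched 15284 of the 19625 starts by symbol. Intervals are Wilson 95% intervals over numbers of peaks. They treat peaks as independent draws and cover neither the counting error of fragments nor the spread between libraries. Reads carried no molecular identifiers. Software comprised Python 3.11.15, pandas 2.3.3, numpy 2.4.6, scipy 1.17.1 and, for scaling, R 4.3.3 with edgeR 4.0.16 and DESeq2 1.42.0. Scripts were tested on simulated data. The sequence and level of 1 of the strongest distal peaks are not reported here.

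Besides the listed genes and pairs, the rule allowed the 10 strongest peaks, distal peaks and starts and the 5 most variable peaks of at least 10 CPM. Loci that hold an open peak away from the start, and the multicopy genes, were named after their values were seen. The libraries, gene lists and pairs were chosen with earlier results of these data known. Other windows, thresholds, scalings, filters and starts, and each library left out, were tried as alternatives.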

Additional observations from a re-analysis of the deposited data

Results flagged for a closer look

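In groups of 6, a library counts here as far from the others when its gap to the nearest one exceeds Dixon's 95% limit, which chance alone passes in about 1 of 20 groups. Of 58 summaries and named peaks examined, 6 passed it, and of 234 listed gene starts 10 did (4.27%). Library 6 was far above the others in the share of peaks without a fragment, both as deposited (11.3%) and at equal depth (12.2%). It was also far below them in the median start level of the neuron and glia list, with 1.53 CPM per kb against 2.3 to 2.67, and above them in the promoter peak of DGLUCY, with 155 CPM per kb. Library 2 was far below the others in the peak near SP4 and the lncRNA gene ENSG00000290069, with 134 CPM per kb, and in the distal peak near SERPINH1, with 98.4 CPM per kb.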

How the results depend on the processing

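Relative to the 90th percentile of all peaks, open starts depend on where the threshold is put. With the 80th percentile 22 of 24 mesenchymal factors were open and 5 of the 55 epithelial, endothelial and immune genes, and 62.6% of all starts; with the 95th percentile 8, 0 and 31.5%, and 11 of 24 matrix genes. Among peaks with at least 1 CPM the matrix, mesenchymal and combined lists had 11, 6 and 0 open starts against 24.4% of all starts. Whether the mesenchymal list departs from all starts thus depends on the threshold. Without the width correction the combined list had 5, and with a window of 250 bp it had 1. Scaling by TMM or DESeq2 size factors changed the call of 0 of the 280 listed genes, and using any annotated start added 11, among them DCN, RUNX1, KRT8 and CD34. Leaving out 1 library gave 17 to 17, 14 to 15 and 2 to 2 open starts in the 3 lists, a promoter share of counts of 54.2% to 54.7% and a median correlation of 0.926 to 0.930.

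The promoter share was 44.9% of counts and 16.5% of peaks within 1 kb, 46.5% and 19.5% with protein-coding starts only, and 57.7% and 38.2% among peaks of at least 1 CPM. The median correlation was 0.874 with a prior count of 0.5, 0.958 for peaks of at least 1 CPM, 0.923 after thinning and 0.822 as Spearman's rho. Without width correction ZEB1 and ZEB2 (3.02) and NR2F2 and NR2F1 (0.45) changed sign and 12 pairs passed. With 5 libraries 0 of 12 pairs can pass (0 to 0), since the smallest exact permutation p is 0.0625. No paired analysis was possible because only 1 group was used, and the replicate numbers could pair libraries only across groups.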
